A study of Homo sapiens with 2 samples.

Results

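The 10 genes described here encode the main heat shock chaperones of the human cell: HSPB1, HSPA1A, HSPA1B, HSPA5, HSPA8, HSPA9, HSP90AA1, HSP90AB1, HSPD1 and HSPE1. Their mRNAs were examined for 5-methylcytosine (m5C) by RNA BS-Seq in the breast cancer line MDA-MB-468 and in MCF10A, a non-cancerous line of mammary epithelium, with 1 library for each line and no replicates. The labels give DMEM as the medium of both lines, but the methods of the study give DMEM/F12 with horse serum, EGF, hydrocortisone and insulin for MCF10A and RPMI with fetal bovine serum for MDA-MB-468, so medium and line cannot be told apart. No treatment is named, and poly(A)+ RNA was treated with bisulfite at 60 degrees for 8 hours. A site was taken as a chaperone site when its coverage was at least 10 and it lay on an exon of any of these genes, on the same strand, in the basic transcripts of GENCODE release 44 (GRCh37). In MCF10A 2398 of 1584002 kept sites were chaperone sites, and in MDA-MB-468 1701 of 1271253. All 10 genes had kept sites in both lines, and 1623 sites were kept in both.

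Bisulfite turns unmethylated cytosine into uracil, which is read as T, whereas m5C is still read as C, so the share of unconverted calls at a site is its methylation ratio. Cytosines that the bisulfite did not reach are also read as C, and paired bases convert less readily, so an unconverted call is not in itself a methyl group. In mRNA, m5C is placed by methyltransferases of the NSUN family, of which NSUN2 and NSUN6 are the best described. Chaperones bind unfolded or partly folded proteins and are made in large amounts by growing cells. HSPA1A, HSPA1B and HSP90AA1 are heat-inducible, HSPA8 and HSP90AB1 are their constitutive counterparts in the cytosol, HSPA5 works in the endoplasmic reticulum, HSPA9, HSPD1 and HSPE1 in mitochondria, and HSPB1 is a small heat shock protein that holds client proteins without ATP.

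The identity of the lines was checked on fixed markers. CDKN2A and MTAP, which are deleted in MCF10A, had 0 kept sites there and 194 and 14 in MDA-MB-468, and SMAD4, which is deleted in MDA-MB-468, had none in that line and 157 kept sites in MCF10A. EGFR, which is amplified in MDA-MB-468, had a mean coverage of 82.0 in that line and 17.7 in MCF10A. The epithelial keratins KRT8 and KRT18 were covered in both lines, but EPCAM and CDH1, with 175 and 108 kept sites in MDA-MB-468, had 0 in MCF10A, and the blood markers PTPRC and HBB had none in either. The files held 76098976 and 90960018 calls in MCF10A and MDA-MB-468, and the coverage of a kept site had a median of 18 in each. The share of unconverted calls over all kept sites, the background of the test, was 1.99% and 1.81%.

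In MCF10A 41 of the 2398 chaperone sites (1.71%) were identified as m5C sites (Fisher's exact test, one-sided against the background, Benjamini-Hochberg adjusted p under 0.05 over all kept sites), where 0.960% of all kept sites of that line were called. In MDA-MB-468 23 of 1701 chaperone sites (1.35%) were called, against 0.840% of all kept sites. The calls fell on few of the genes. HSPA8 carried 17 in MCF10A and 8 in MDA-MB-468, HSP90AA1 16 and 14, HSPB1 3 and 1, HSP90AB1 4 and 0, and HSPA9 1 and 0. HSPA1A, HSPA1B, HSPA5, HSPD1 and HSPE1 had 0 called sites in each line. Thus 5 of the 10 genes had a call in MCF10A and 3 in MDA-MB-468, where 21.1% and 16.9% of all protein-coding genes with a kept site had one. The chaperone sites were also more deeply covered than most, with medians of 46 (MCF10A) and 31 (MDA-MB-468). Their excess of calls did not hold among deeply covered sites. At a coverage of at least 50, 1.07% of the MCF10A chaperone sites were called, where the share for all nuclear sites was 1.40%. The same shares for MDA-MB-468 were 0.172% and 1.30%.

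The called sites were not spread along the transcripts. Joining called sites no more than 20 nt apart, 36 of the 41 in MCF10A (87.8%) fell into 7 stretches and 22 of the 23 in MDA-MB-468 (95.7%) into 4. The first part of each of the stretches that hold most of the calls is given here from GRCh37. It is written 5′ to 3′ on the strand of the mRNA with T for U and with the called cytosines in capitals. The stretches run on past the parts shown, in HSPA8 to positions 918 (MCF10A) and 1733 (MDA-MB-468) of the canonical transcript. In HSP90AA1 they run on to 2584 (MCF10A) and 2320 (MDA-MB-468).
HSPA8, MCF10A, chr11:122930470-122930496, minus strand, coding sequence: CgtgCtaagCgtaCCCtCtCttCCagC
HSPA8, MDA-MB-468, chr11:122929074-122929101, minus strand, coding sequence: CaagaattCaCttgagtcctatgCCttC
HSP90AA1, MCF10A, chr14:102547728-102547754, minus strand, 3′UTR: CtgtCaagCCggatgCCtaagtagaCC
HSP90AA1, MDA-MB-468, chr14:102548002-102548030, minus strand, 3′UTR: CttaCctgttCagtaCtCtaCaattCCtC
In each of the 4, capitals run through the whole sequence and stand in many different contexts, and lower-case cytosines are few.

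HSPA8, the constitutive cytosolic Hsp70, had the stretch with the most called sites. In MCF10A 13 of the 16 kept sites between positions 883 and 918 of the canonical transcript were called, with 4 to 6 unconverted calls at a coverage of 10 to 17 and ratios from 26.7% to 60.0%. At chr11:122930482, which shares the highest coverage of the stretch with its neighbor, 6 of 17 calls were unconverted (35.3%, 17.3 to 58.7, adjusted p = 1.17e-04 in Fisher's exact test). Pooled over the 16 sites, the ratio was 32.9% (95% Wilson interval 27.2 to 39.2). MDA-MB-468 had no kept site there, but 14 of these cytosines were deposited at a coverage of 5 to 9, and 58 of their 108 calls (53.7%, interval 44.3 to 62.8) were unconverted. So both libraries had a high share of unconverted calls at this place, at low coverage, and in MDA-MB-468 no site of it could enter the test. Intervals here cover the sampling of calls only, and since neighboring sites are read by the same reads, they are too narrow.

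The second part of the HSPA8 coding sequence with calls ran from position 1692 to 1776. In MDA-MB-468 8 of the 11 kept sites from 1692 to 1733 were called, with 4 or 5 unconverted calls at a coverage of 14 to 28, and the pooled ratio was 19.8% (15.3 to 25.3). Of those with a ratio of at least 20%, chr11:122929078 had the highest coverage, with 5 of 25 calls unconverted (interval 8.86% to 39.1%, adjusted p = 0.0108 in Fisher's exact test). The window of these 11 sites was set by the calls of MDA-MB-468. In MCF10A they had a coverage of 53 to 120 and a pooled ratio of 5.09% (3.97 to 6.51), and 1 of them was called. From position 1733 to 1776 the MCF10A library had 4 called sites among 6, with 9 to 12 unconverted calls at a coverage of 90 to 111. The pooled ratio there was 8.72% (6.69 to 11.3) in MCF10A and 10.2% (6.57 to 15.6) in MDA-MB-468.
HSPA8, MCF10A, chr11:122929035-122929060, minus strand, coding sequence: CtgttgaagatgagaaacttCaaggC
The first capital of that sequence, at chr11:122929060 (position 1733), was the only chaperone site called in both lines. It had 12 unconverted calls of 109 in MCF10A (11.01%, interval 6.41 to 18.3, adjusted p = 3.45e-04 in Fisher's exact test) and 5 of 24 in MDA-MB-468 (20.8%, 9.24 to 40.5, adjusted p = 0.0090 in the same exact test).

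**Figure D1:**
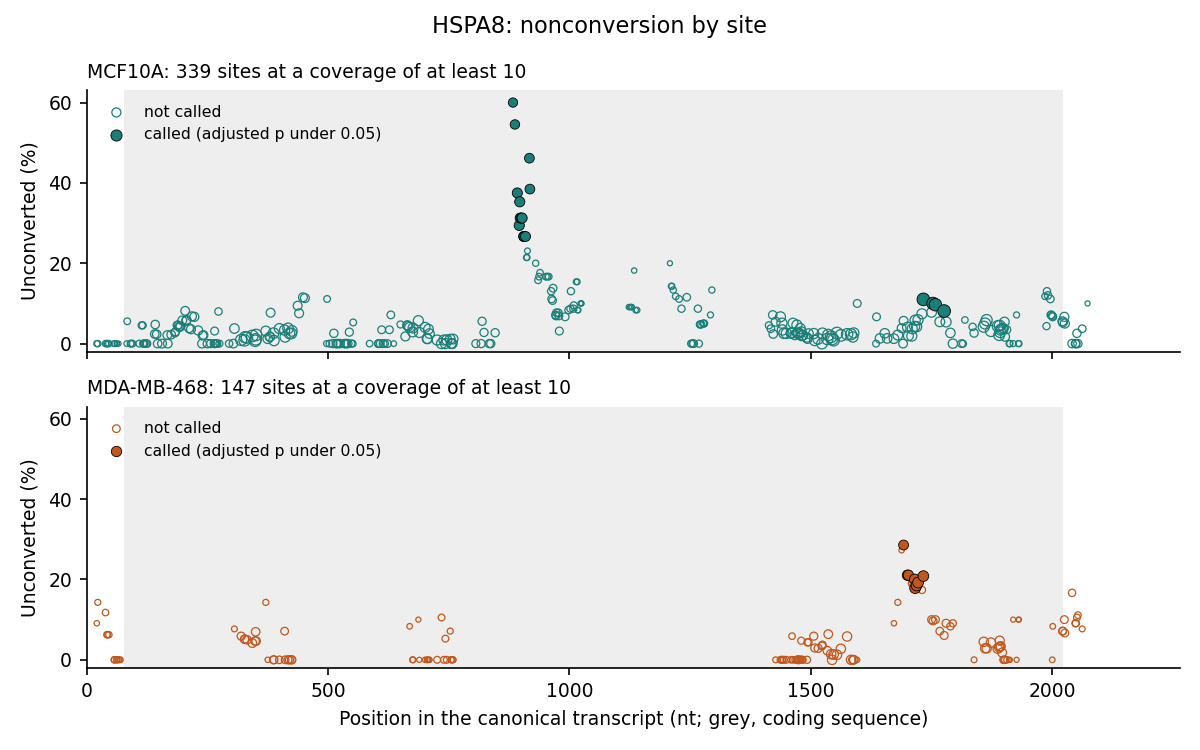
Share of unconverted calls (%) at each kept cytosine of HSPA8 against its position in the canonical transcript (nt), MCF10A above and MDA-MB-468 below, with 1 library each. Larger circles have more coverage, filled circles were called and the coding sequence is grey. The filled circles of MCF10A stand at 883 to 918, where MDA-MB-468 has no kept site, and at 1733 to 1776, and those of MDA-MB-468 at 1692 to 1733.

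HSP90AA1, the heat-inducible cytosolic Hsp90, held its calls mainly in the 3′UTR. The 75 kept 3′UTR sites in each line included 13 that were called in MCF10A, and 14 that were called in MDA-MB-468. Over the 3′UTR sites of each line, 10.5% (9.34 to 11.9) of the calls were unconverted in MCF10A and 7.77% (6.70 to 8.998) in MDA-MB-468. In its coding sequence the values were 2.68% (2.43 to 2.97) over 207 sites and 2.06% (1.66 to 2.57) over 98 sites. Thus the 3′UTR of this mRNA stood above its coding sequence in each library, and the intervals did not overlap. The lines cannot be ranked by these values, since their sites differ. Over the 162 sites of the whole mRNA kept in both, MCF10A had 3.52% (3.22 to 3.84) and MDA-MB-468 4.11% (3.62 to 4.66).

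In MCF10A all 9 kept sites of HSP90AA1 from position 2553 to 2584 were called, with 4 to 6 unconverted calls at a coverage of 11 to 20 and a pooled ratio of 33.8% (26.4 to 42.1). The one with the highest coverage, chr14:102547723, had 5 of 20 calls unconverted (25.0%, 11.2 to 46.9, adjusted p = 0.0052 in Fisher's exact test). In MDA-MB-468 only 2 of them were kept, with 6 of 20 calls unconverted and no call, and the other 7 had 15 of 58 calls unconverted (25.9%, 16.3 to 38.4) at a coverage of 7 to 9. Both libraries thus had a high share of unconverted calls at this place. The 2 kept sites of MDA-MB-468 had 3 unconverted calls of 10 each, where 4 were needed at that coverage, and the other 7 could not enter the test. The stretch from position 2277 to 2320, just after the stop codon, was set by the calls of MDA-MB-468. MDA-MB-468 had 10 of 11 kept sites called, with 4 to 7 unconverted calls at a coverage of 18 to 28 and a pooled ratio of 25.0% (20.1 to 30.6), whereas in MCF10A none of the 11 was called and the pooled ratio was 8.37% (6.43 to 10.8) at a coverage of 45 to 60. The site of highest coverage in MDA-MB-468, chr14:102548010, had 7 of 28 calls unconverted there (25.0%, 12.7 to 43.4, adjusted p = 1.15e-04 in Fisher's exact test) and 6 of 59 in MCF10A. Further along the 3′UTR, MDA-MB-468 had 2 called sites at 2606 and 2612, with 4 of 17 calls unconverted at each, and the same sites had 3 of 13 in MCF10A without being called. The highest ratio of any chaperone site was a lone site of the 3′UTR at chr14:102547907 in MCF10A, with 7 of 11 calls unconverted (63.6%, 35.4 to 84.8, adjusted p = 1.02e-07 in Fisher's exact test). Its 51-nt window, read with every C as T, also had 1 other exact match in the genome, and it had no kept site in MDA-MB-468.

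**Figure D2:**
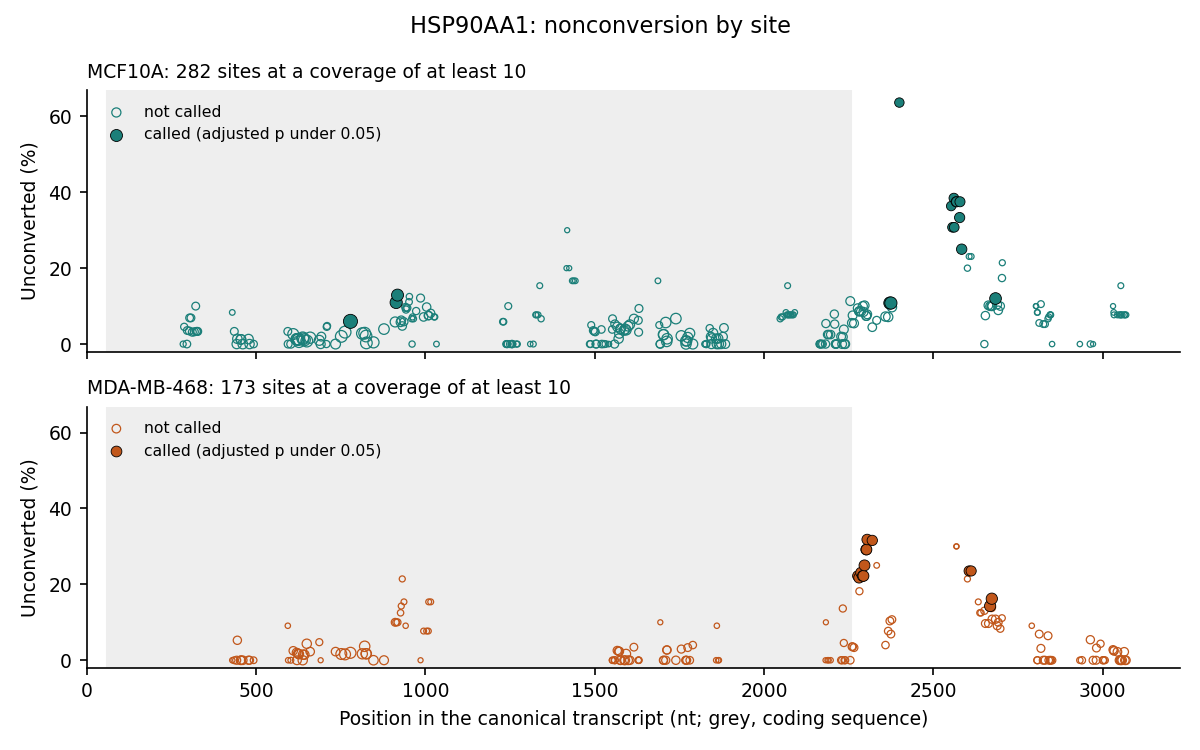
Share of unconverted calls (%) at each kept cytosine of HSP90AA1 against its position in the canonical transcript (nt), MCF10A above and MDA-MB-468 below, with 1 library each. Larger circles have more coverage, filled circles were called and the coding sequence is grey. The filled circles lie mainly in the 3′UTR, at 2553 to 2584 in MCF10A and at 2277 to 2320 in MDA-MB-468.

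In the coding sequence of HSP90AA1, MCF10A had 3 called sites at higher coverage.
HSP90AA1, MCF10A, chr14:102551269-102551289, minus strand: aaaaggaagaCaaagaagaag
HSP90AA1, MCF10A, chr14:102551132-102551152, minus strand: aagtacatCgatCaagaagag
The lone site of the first sequence (position 779) had 21 of 351 calls unconverted in MCF10A (5.98%, 3.95 to 8.97, adjusted p = 0.0016 in Fisher's exact test) and 4 of 204 in MDA-MB-468 (1.96%, 0.765 to 4.93). It was the called chaperone site with the highest coverage in MCF10A. The pair of the second sequence (positions 914 and 918) had 8 of 73 and 8 of 62 calls unconverted in MCF10A, and 2 of 20 at each in MDA-MB-468, where neither was called.

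HSP90AB1, the constitutive cytosolic Hsp90, had 4 called sites of 397 in MCF10A and none of 300 in MDA-MB-468. They lay together in the last part of the coding sequence, between positions 2120 and 2151, with 5 to 7 unconverted calls at a coverage of 29 to 60 and ratios from 11.7% to 17.2%.
HSP90AB1, MCF10A, chr6:44221070-44221090, plus strand, coding sequence: cagacCCactccaacCgcatc
Over the 7 kept sites of positions 2120 to 2130 the pooled ratio was 11.1% (8.35 to 14.7) in MCF10A and 3.32% (1.69 to 6.41) in MDA-MB-468. That window was set by the calls of MCF10A. Over the whole mRNA the lines were close, with 2.02% (1.90 to 2.15) of calls unconverted in MCF10A and 1.93% (1.76 to 2.11) in MDA-MB-468.

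HSPB1 was the most deeply covered of the 10, with a median coverage of 178 over 200 sites in MCF10A and 318.5 over 218 sites in MDA-MB-468, and had 4 called sites in all.
HSPB1, MCF10A, chr7:75933347-75933367, plus strand, coding sequence of the canonical transcript: cctgagggCaCaCtgaccgtg
HSPB1, MDA-MB-468, chr7:75932196-75932216, plus strand, coding sequence: gccccctgccCcccgccgcca
The 3 called sites of the first sequence (positions 523, 525 and 527) had 6 of 24, 7 of 24 and 6 of 21 calls unconverted in MCF10A, or 25.0%, 29.2% and 28.6%, with adjusted p from 6.08e-05 to 9.67e-04 in Fisher's exact test. In MDA-MB-468 they had 3 of 38, 5 of 40 and 3 of 36, and were not called. The coverage at these 3 sites was far below the median of the gene in both lines, and their window had 2 other exact matches in the genome. The annotation also places them in a 5′UTR, since in another basic transcript of HSPB1 translation starts further along.

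The call of HSPB1 in MDA-MB-468, at chr7:75932206 (position 217), lies in a run of cytosines. There 21 of 447 calls were unconverted (4.70%, 3.09 to 7.07, adjusted p = 0.0128 in Fisher's exact test), against 4 of 283 in MCF10A (1.41%, 0.551 to 3.58). It was the only called chaperone site at a coverage of at least 50 in MDA-MB-468. The coding sequence as a whole was lower in that line. Over the coding sequence of the canonical transcript 2.32% (2.18 to 2.47) of the calls were unconverted in MCF10A and 1.31% (1.23 to 1.39) in MDA-MB-468. The 12 sites of its short 5′UTR had 3.94% (2.44 to 6.31) in MCF10A and 7.77% (5.78 to 10.4) in MDA-MB-468, and these intervals overlapped. In MDA-MB-468 all 12 had at least 1 unconverted call, but neighboring sites share reads. None of the 12 was called in either line.

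**Figure D3:**
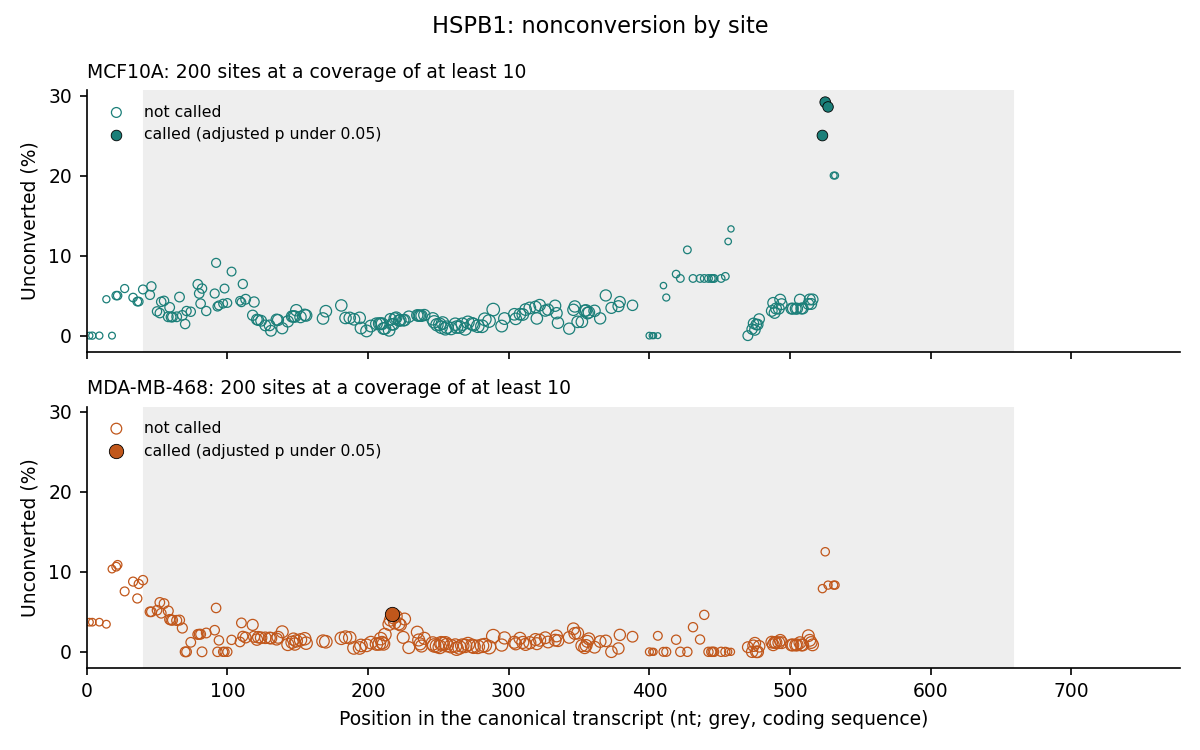
Share of unconverted calls (%) at each kept cytosine of HSPB1 against its position in the canonical transcript (nt), MCF10A above and MDA-MB-468 below, with 1 library each; filled circles were called and the coding sequence is grey. Most sites lie under 5% in each line, the called sites of MCF10A stand at 523 to 527, and that of MDA-MB-468 stands at 217.

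Among the mitochondrial chaperones, HSPA9 had a single called site of 394 in MCF10A, in its 3′UTR at chr5:137891401 (minus strand, position 2448), and none of 222 in MDA-MB-468.
HSPA9, MCF10A, chr5:137891391-137891411, minus strand, 3′UTR: gtgaaaccatCtcgcacacag
It had 4 of 15 calls unconverted in MCF10A (26.7%, 10.9 to 52.0, adjusted p = 0.0208 in Fisher's exact test) and 0 of 20 in MDA-MB-468. HSPD1 and HSPE1, which form the mitochondrial folding chamber and its lid, were the least unconverted of the 10 in each library. HSPD1 had 1.32% (1.07 to 1.62) unconverted calls in MCF10A and 0.757% (0.399 to 1.43) in MDA-MB-468, and HSPE1 1.41% (0.939 to 2.10) and 0.745% (0.319 to 1.73). HSPE1 had only 34 kept sites in each line, and HSPD1 155 in MCF10A and 53 in MDA-MB-468. HSPE1 shares at most 192 nt of exon with a transcript of HSPE1-MOB4, so its calls may come from either gene.

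HSPA5, the Hsp70 of the endoplasmic reticulum, had no call although it offered the most sites (429 in MCF10A, 347 in MDA-MB-468). Its nonconversion was 1.87% (1.72 to 2.03) in MCF10A and 1.17% (1.02 to 1.34) in MDA-MB-468. At a coverage of 50 a site needed 6 unconverted calls to be called in either line, so a low methylation level at single sites of HSPA5 was not detectable at this depth. The heat-inducible pair HSPA1A and HSPA1B also had no call, but little of them was measured. Each has 540 cytosines in its canonical transcript whose 51-nt window has another exact match after conversion, and only 1.48% to 3.33% of those were kept, against 50.4% to 61.3% of the cytosines without such a match. What was measured is mainly the 5′UTR, with 62 of the 77 kept sites of HSPA1A in MCF10A. HSPA1A had 3.25% (2.59 to 4.07) unconverted calls in MCF10A and 1.49% (1.18 to 1.88) in MDA-MB-468, and HSPA1B 2.62% (2.06 to 3.33) and 1.03% (0.827 to 1.29). HSPA1B also shares exon sequence with an unnamed gene of the annotation (ENSG00000285565, 920 nt). The limit by other matches was not confined to this pair. Such a match was found for 229 of 490 cytosines in HSPA8 and 248 of 576 in HSP90AA1. In HSPD1 it was 226 of 390, and in HSPE1 48 of 95. In MCF10A 51.1% of those in HSPA8 were kept, against 86.7% of those without a match. For HSP90AA1 57 of 248 were kept there, against 225 of 315. MDA-MB-468 kept only 13.6% of all HSPD1 and 22.1% of all HSPE1 cytosines.

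Over the 10 genes together 4579 of 190460 calls were unconverted in MCF10A (2.40%, 2.34 to 2.47) and 2401 of 147147 in MDA-MB-468 (1.63%, 1.57 to 1.70). All kept nuclear sites had 1.94% and 1.77%. The chaperones thus stood above the nuclear sites in MCF10A and below them in MDA-MB-468. The latter rested on HSPB1, since without it the value was 1.94%. The MCF10A value was 2.28% without HSP90AA1 and 1.93% at a coverage of at least 100. A nuclear value at that coverage is not given here. The genes differed among themselves in each line. In MCF10A the order from the highest was HSP90AA1 (3.79%, 3.51 to 4.10), HSPA8 (3.46%, 3.23 to 3.70), HSPA1A, HSPA1B, HSPA9 (2.34%, 2.12 to 2.59), HSPB1 (2.33%, 2.19 to 2.48), HSP90AB1, HSPA5, HSPE1 and HSPD1. The intervals of all neighbors in that order overlapped except those of HSPB1 and HSP90AB1. In MDA-MB-468 it was HSPA8 (4.54%, 3.94 to 5.23), HSP90AA1 (4.12%, 3.64 to 4.66), HSPA9 (2.33%, 1.92 to 2.83), HSP90AB1, HSPA1A, HSPB1 (1.35%, 1.27 to 1.44), HSPA5, HSPA1B, HSPD1 and HSPE1. There the intervals of HSP90AA1 and HSPA9 did not overlap and those of the other neighbors did. Among genes with at least 30 kept sites, 91.2% lay below HSP90AA1 and 88.8% below HSPA8 in MCF10A, and 96.3% and 97.2% in MDA-MB-468. For HSPD1 these shares were 21.95% and 8.14%, and for HSPE1 27.4% and 7.68%.

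**Figure D4:**
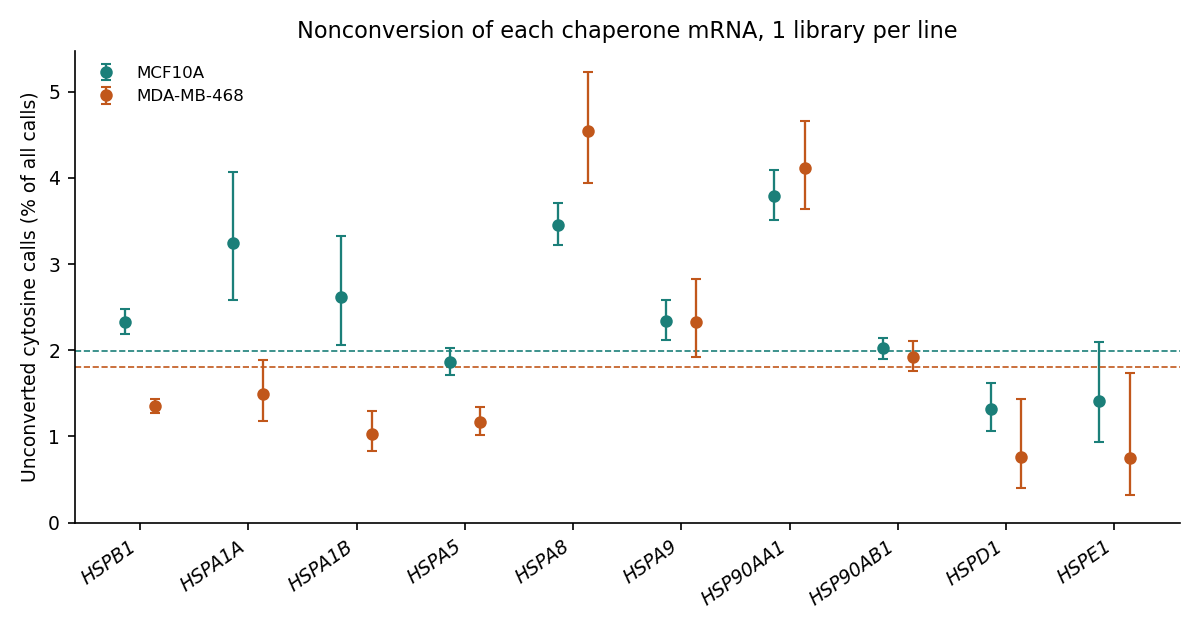
Unconverted calls as a percentage of all calls over the kept sites of each chaperone mRNA, for MCF10A and MDA-MB-468 with 1 library each. Bars are 95% Wilson intervals for the sampling of calls, and the dashed lines are the backgrounds of 1.99% and 1.81%. HSP90AA1 and HSPA8 stand above the background in each line, and HSPB1, HSPA1A, HSPA1B and HSPA5 are lower in MDA-MB-468.

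By region, the 3′UTRs of the chaperones were the least converted. Their nonconversion was 4.21% (3.86 to 4.59) over 271 sites in MCF10A, with 14 called sites, and 3.72% (3.33 to 4.15) over 245 sites in MDA-MB-468, also with 14. The 3′UTRs of all mRNAs had 2.06% and 1.71%, and 0.837% and 0.740% of their sites were called. HSP90AA1 carried most of this, since without it the 3′UTR values were 2.69% and 2.33%. The coding sequences had 2.28% (2.20 to 2.35) and 1.56% (1.49 to 1.63), with 24 called sites of 1678 and 9 of 1076, where 0.615% and 0.551% of the coding sites of all mRNAs were called. MCF10A had 3 calls among 449 5′UTR sites and MDA-MB-468 had 0 among 380, where 2.24% and 1.95% of the 5′UTR sites of all mRNAs were called. By the canonical transcript alone there were 0 called sites of 278 and 0 of 253, the 3 being the HSPB1 sites above. The chaperone 5′UTRs as a group had 2.35% (2.17 to 2.54) and 1.26% (1.13 to 1.41) unconverted calls, where those of all mRNAs had 2.70% and 2.56%.

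The highest ratios belonged to sites of low coverage. At a coverage of at least 50 there were 1122 chaperone sites in MCF10A with 12 called (1.07%). MDA-MB-468 had 583 such sites with 1 called (0.172%). Both shares lay below those of all nuclear sites of that coverage, which were 1.40% and 1.30%. No chaperone site of that coverage reached a ratio of 20%, and the highest was 12.9% in MCF10A, at the HSP90AA1 site of position 918. In MDA-MB-468 the highest was 8.96%, at position 40 of HSPB1, which was not called. At a coverage of at least 100 the chaperone nonconversion was 1.93% (1.86 to 2.01) over 568 sites in MCF10A and 1.23% (1.16 to 1.30) over 279 sites in MDA-MB-468.

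**Figure D5:**
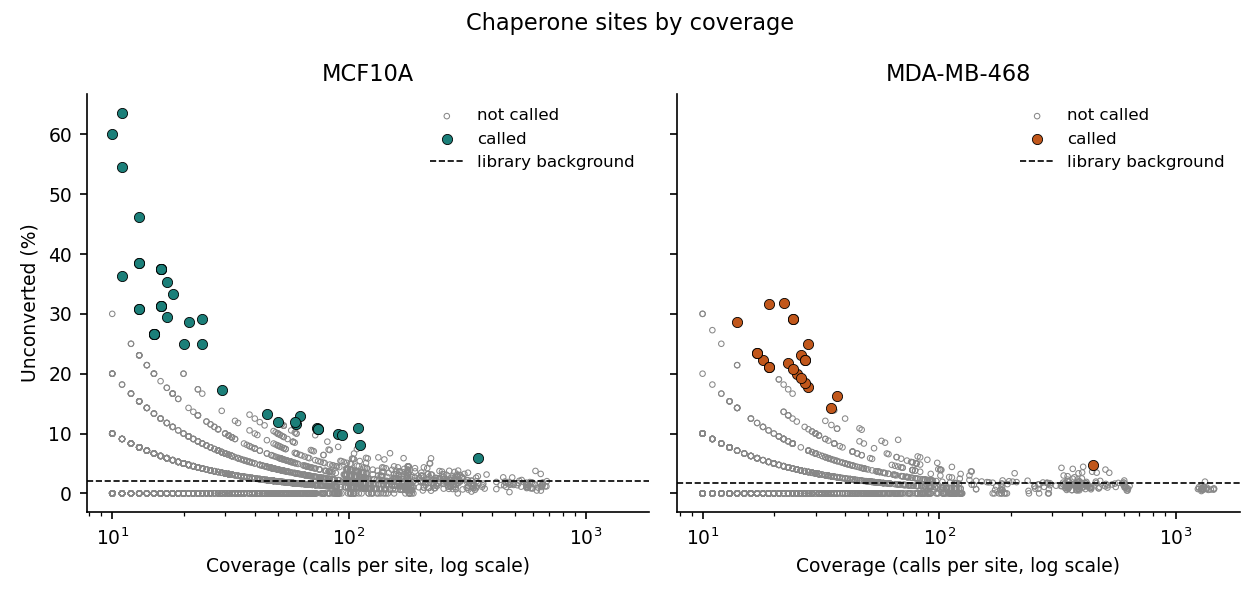
Share of unconverted calls (%) of every kept chaperone site against its coverage (calls per site, log scale), for MCF10A with 2398 sites and MDA-MB-468 with 1701. Filled circles were called and the dashed lines are the library backgrounds of 1.99% and 1.81%. The highest ratios belong to sites of low coverage, and above a coverage of 50 no site reaches 20%.

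In the direct comparison of the libraries no chaperone site passed the threshold. Of the 1623 sites kept in both, 0 passed the two-sided Fisher's exact test after adjustment over 812729 sites, and 0 passed the Wald test, where 0.0691% of all these sites were lower in MDA-MB-468 and 0.0202% higher, 0.0893% in all. The smallest unadjusted p was 0.0027 in the exact test, at position 373 of HSPB1, with 7 of 202 calls unconverted in MCF10A but 0 of 264 in the other line. At an unadjusted p under 0.05 in that exact test there were 58 sites (3.57%), 28 lower and 30 higher in MDA-MB-468. By gene, HSPB1 had 20 lower and 3 higher, HSPA8 0 lower and 12 higher, and HSP90AB1 0 lower and 8 higher. Of the nuclear sites 1.09% had such a p, 5813 of them lower and 3013 higher. These shares were not matched by coverage. The median coverage of kept chaperone sites was 46 (MCF10A) and 31 (MDA-MB-468), but 18 for kept nuclear sites of either line. Whether the larger chaperone share remains at equal coverage was not tested. Sites of the same gene share reads and are not independent, and each line is 1 library, so such a test compares these libraries and not the kinds of cell. The study itself names HSPB1 among its differentially methylated genes between these lines. It used the QNB test on sites filtered by predicted structure, so test and site set differ from those here. That no site passed here does not show that the lines are equal. The site ratios of the lines had a Pearson correlation of 0.299 and a Spearman correlation of 0.145 over the 1623 sites. Over the 228 with a coverage of at least 100 in both these were 0.173 and 0.261, so one measure fell with coverage and the other rose. Neighboring sites share reads, so these are descriptions. Of all nuclear sites kept in both lines and called in MCF10A, 48.2% were also called in MDA-MB-468, and 63.0% in the reverse direction. For the chaperones it was 1 of 20 and 1 of 23. A site near the needed number of unconverted calls can be called in 1 line only, at a like ratio in both. Positions 2606 and 2612 of HSP90AA1 had 4 of 17 (MDA-MB-468, called) and 3 of 13 (MCF10A, not called). Others differed, as from 2277 to 2320, with 25.0% in MDA-MB-468 and 8.37% in MCF10A. The HSPA8 stretch from 883 to 918 does not enter these counts, since MDA-MB-468 had no kept site there.

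The choice of genes used neither RNA structure nor sequence context, and both were described. Pairing was predicted for the 52 protein-coding basic transcripts at 70 degrees. In the maximum expected accuracy structure with the parameter of 0.1, 0 of the 41 and 0 of the 23 called sites were paired, against 9.04% and 9.12% of the other chaperone sites, but this structure leaves few bases paired. By a pairing probability over 0.5, 43.9% (29.9 to 59.0) of the called sites in MCF10A and 43.5% (25.6 to 63.2) in MDA-MB-468 were paired, against 56.6% and 58.7% of the others. Among the longer stretches of called sites the share was 69.2% in HSPA8 from 883 to 918, 75.0% from 1692 to 1733 and 25.0% from 1733 to 1776. In HSP90AA1 it was 44.4% from 2553 to 2584 and 40.0% from 2277 to 2320. By the same probability, nonconversion was 2.23% (2.15 to 2.32) at paired and 2.68% (2.57 to 2.80) at unpaired sites in MCF10A. In MDA-MB-468 it was 1.40% (1.34 to 1.48) and 2.21% (2.07 to 2.35). By the maximum expected accuracy structure the intervals overlapped in each line. The values were 2.34% (2.13 to 2.58) and 2.41% (2.34 to 2.48) in MCF10A, and 1.41% (1.24 to 1.61) and 1.66% (1.59 to 1.73) in MDA-MB-468.

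The context CNGGG, with the site as its first letter, is described for NSUN2, and CTCCA for NSUN6. In MCF10A 0 of 33 chaperone sites in CNGGG were called, where 2.20% of all nuclear sites in this context were called, and in MDA-MB-468 0 of 29, where it was 1.84%. In CTCCA 0 of 13 and 0 of 8 chaperone sites were called, where 0.681% and 0.491% of all nuclear sites in it were called. With so few chaperone sites in these contexts, shares of that size would give under 1 call in each line, so the zeros are no result about the chaperones. CNGGG was also less frequent among the chaperone sites (1.38% and 1.70%) than among all nuclear sites (3.18% and 3.50%). CCC, CCG and GCC held 7 of the 41 called chaperone sites in MCF10A (17.1%), close to their share of all chaperone sites there (17.7%). They held 25.7% of all nuclear sites of that line and 55.0% of the called ones. Of the called chaperone sites 39.0% stood next to another C in MCF10A, where 44.7% of all chaperone sites did. The share of the called ones for MDA-MB-468 was 34.8%, where 46.0% of all its chaperone sites stood next to a C. Over all nuclear sites 55.0% and 56.6% stood next to a C, and 74.4% and 75.2% of the called ones.

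The other chaperones and their helpers were taken from a list of 42 genes. Of these, 31 were covered by kept sites in MCF10A, with a called site in 11, and 29 in MDA-MB-468, with a called site in 8. Among all protein-coding genes with a kept site, 21.1% and 16.9% had a called site. Of their sites 47 of 7549 (0.623%) and 47 of 5328 (0.882%) were called, where 0.960% and 0.840% of all kept sites were. Without CDC37, left out after its count was seen, the shares were 22 of 7154 (0.308%) and 28 of 4934 (0.567%). The nonconversion of the list was 2.23% (2.18 to 2.28) and 1.95% (1.89 to 2.01). CDC37, which brings kinases to Hsp90, had the most called sites in each line, 25 in MCF10A and 19 in MDA-MB-468. DNAJA3, a mitochondrial partner of Hsp70, had 7 and 8, HSBP1, which binds heat shock factor, had 5 in MCF10A and 1 in the other line, and PTGES3, the Hsp90 partner p23, had 12 in MDA-MB-468 and 0 in MCF10A.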

How the data were processed

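For both lines the authors deposited counts of unconverted (m5C) and converted calls per cytosine. Per the methods, reads were trimmed with Trim Galore and aligned to hg19 with MeRanTK, with a base quality of at least 30 and a read duplication of at most 10; the submitters' processing notes also name Bismark. The lowest deposited coverage is 5, and introns are included. Here a site was kept if it lay on an exon of a basic transcript (GENCODE release 44) or on the mitochondrial chromosome and had 10 or more calls. Each was compared with the background of its library by Fisher's exact test, one-sided (SciPy 1.17.1, Benjamini-Hochberg, 0.05). Libraries were compared by the two-sided form of that test, in place of the QNB test of the methods, which was not used here; there are no replicates. Structures came from ViennaRNA 2.7.2 with pairs at most 150 nt apart, for the chaperone transcripts only, so the structure filter is an alternative. The tests were checked on simulated counts. The members, lists and tests were chosen with earlier results of these data known. Sites named by rule are, per gene and line, the called site with the highest coverage at a ratio of at least 0.2, sites called in both lines, and all called HSPB1 sites; other sites were named after their values were seen.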

Additional observations from a re-analysis of the deposited data

Results flagged for a closer look

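Some deposited values on the chaperone genes did not enter the tests above and exceed the library background. The chaperone exon sites with a coverage of 5 to 9 had 6.50% unconverted calls in MCF10A (5.64 to 7.48, 405 sites) and 6.19% in MDA-MB-468 (5.49 to 6.96, 615 sites), against backgrounds of 1.99% and 1.81%. Those backgrounds rest on sites with a coverage of at least 10. No value over all genes at a coverage of 5 to 9 is given, so the excess cannot be assigned to the chaperone genes. On the strand opposite to the canonical transcripts, outside annotated exons, 98.2% of 219 calls in MCF10A (43 sites) and 97.9% of 195 calls in MDA-MB-468 (36 sites) were unconverted, at a coverage of 5 to 7. The introns had 2.69% (1.58 to 4.54) and 1.84% (1.36 to 2.48), and these intervals include the background.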

How the results depend on the processing

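The counts of called chaperone sites stayed within 1.5 times of 41 and 23 under most alternatives. In MCF10A 27 sites were called at a coverage of at least 20, 27 had a ratio of at least 0.2, and 18 were called when only sites kept in both lines were tested. In MDA-MB-468 45 were called at a coverage of at least 5. Without sites of a pairing probability over 0.5, chosen after seeing the data, the numbers left were 23 (MCF10A) and 13 (MDA-MB-468). Of the 11 sites chosen by the rule for named sites, 2 are left out at a coverage of at least 20, 2 are not kept in both lines, and the 3 HSPB1 sites of MCF10A are left out with the sites that have another match; where a site was tested again, its call held. On the list of other chaperones 22 and 28 sites were called without CDC37, against 47 and 47 with it. Between the lines no site passed under any alternative except 1: when only sites called in at least 1 line were tested, 2 were higher in MDA-MB-468, position 1702 of HSPA8 (2 of 102 against 4 of 19) and position 2320 of HSP90AA1 (2 of 45 against 6 of 19), with adjusted p of 0.0402 and 0.0456 in Fisher's exact test; that set was chosen by the same counts.

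The nonconversion of the chaperones left the interval of its main value in these cases. As a mean of site ratios MCF10A had 3.54% and MDA-MB-468 2.57% over all sites, 2.80% and 1.88% in 5′UTRs, 3.28% and 2.27% in CDSs, and 6.37% and 4.95% in 3′UTRs. At a coverage of at least 20 MCF10A had 2.26% in all, 2.17% in CDSs and 3.36% in 3′UTRs, and at a coverage of at least 5 MDA-MB-468 had 1.76% in all and 1.71% in CDSs. Without the sites paired in the maximum expected accuracy structure the 3′UTRs had 4.64% and 4.17%. Without those of a pairing probability over 0.5 the values were 2.68% and 2.21% in all, 2.51% and 2.05% in CDSs, 4.79% and 4.46% in 3′UTRs, and 1.52% in the 5′UTRs of MDA-MB-468. Further alternatives were added after seeing the data. Without HSP90AA1 the values were 2.28% and 1.53% in all and 2.69% and 2.33% in 3′UTRs, and without HSPB1 1.93% in the 5′UTRs of MCF10A, and 1.94% in all and 1.88% in the CDSs of MDA-MB-468. The causes were not tested.

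No paired analysis was possible because each line is 1 library and the labels give no replicate numbers. At a coverage of 10 a site needed 4 unconverted calls to be called, and at 100 it needed 9 (MCF10A) or 10 (MDA-MB-468), so lower levels were not detectable. Reads without molecular identifiers are not independent molecules, and all intervals cover counting error only.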
